A study of Mus musculus with 18 samples.

Results

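The interferon-induced genes and their GTPases were followed in CD3+ tumor-infiltrating lymphocytes (TILs) from B16-OVA tumors. The set was a fixed list of 49 genes, taken by gene symbol from the 37236 genes of the deposited table, and all 49 had a row. It held the 4 interferon receptor chains, 16 gamma-type genes (the regulators Irf1 and Irf8, 8 guanylate-binding proteins or GBPs, and 6 immunity-related GTPases or IRGs), 28 type I genes (3 regulators, 4 nucleic acid sensors, 9 OAS, IFIT and Mx effectors and 12 other effectors) and Irf2. The split into gamma-type and type I genes follows the interferon that is classically linked to each gene, and many of them respond to both.

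B16-OVA is a mouse melanoma line that carries ovalbumin, a model antigen, and 500000 of these cells were injected under the skin of C57BL/6 mice, whose age was 8 to 12 weeks in the general tumor protocol. The mice were wild type (Nr2f6+/+) or lacked the nuclear receptor gene Nr2f6 in all cells (Nr2f6-/-). From day 3 they received 0.5 mg of the anti-PD-L1 antibody 10F.9G2, which blocks the ligand of the T cell checkpoint receptor PD-1, or the control antibody IgG2b (clone LTF-2), and TILs were collected on day 14. The groups were Nr2f6+/+ IgG2b (n = 3), Nr2f6-/- IgG2b (n = 3), Nr2f6+/+ anti-PD-L1 (n = 6) and Nr2f6-/- anti-PD-L1 (n = 6). T cells were enriched with CD4 and CD8 beads, pooled and sorted for CD3. The authors' figure of these data counts tumor-bearing mice, with fewer in each anti-PD-L1 group than the samples used here. The sources used here do not state whether a sample is 1 mouse. P-values therefore measure only the spread between these samples, which may be technical.

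Interferon gamma, made by activated T cells and NK cells, binds a receptor of IFNGR1 and IFNGR2 and acts on GAS sites. Type I interferons bind IFNAR1 and IFNAR2 and act through STAT2 and IRF9, among others, on interferon-stimulated response elements (ISRE). IRF1, itself induced by interferon gamma, extends the response, and IRF2 competes with it for the same sites. GBPs and IRGs are large GTPases that attack the vacuoles of intracellular pathogens, while the OAS, IFIT and Mx proteins restrict viral RNA and viral particles.

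The samples held 12473391 to 18609482 reads on genes (median 16554699), and values are reads divided by 1 size factor per sample, called normalized counts below. A floor of 3 reads corresponded to 2.46 to 3.64 normalized counts. Nr2f6 was at 0 in all 9 Nr2f6-/- samples and between 20.2 and 200.8 in the 9 Nr2f6+/+ samples. All 10 T cell markers were detected in every sample. The 14 macrophage and monocyte markers moved with the groups: their summed level was 16690 to 20580 normalized counts in Nr2f6+/+ IgG2b, 9353 to 13240 in Nr2f6-/- IgG2b, 1628 to 6943 in Nr2f6+/+ anti-PD-L1 and 916.3 to 2701 in Nr2f6-/- anti-PD-L1. The summed T cell markers ran the other way, from 56510 to 63150 in Nr2f6+/+ IgG2b to 80560 to 96870 in Nr2f6-/- anti-PD-L1. The 7 melanocyte markers summed to a median of 2878 (2495 to 4665) in Nr2f6+/+ IgG2b and 1252 (1156 to 2336) in Nr2f6-/- IgG2b. Under anti-PD-L1 their medians were 3430 (2026 to 7149) in Nr2f6+/+ and 1264 (736.2 to 4371) in Nr2f6-/- TILs, with overlap. Whether this carry-over bears on the genotype differences below was not tested. The library numbers form 2 sets, and the second is made up of the anti-PD-L1 replicates 4 to 6, so values within each set are given where they bear on a result.

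The promoters show how the groups of genes differ in sequence. RefSeq windows of 250 bases before to 50 after each start site (build GRCm38.p6) were found for 37 of the 49 genes. The ISRE core was searched as GAAANNGAAA and the GAS core as TTCNNNGAA, on both strands. Of the gamma-type genes with a window, 9 of 11 (81.8%) held an ISRE core and 8 of 11 (72.7%) a GAS core. Of the type I genes, 10 of 21 (47.6%) held an ISRE core and 5 of 21 (23.8%) a GAS core. Among all 27025 genes with a window the shares were 3.99% and 9.55%. Both cores occurred in 6 gamma-type genes and in 1 type I gene. Genes without a window were Gbp4, Gbp6, Gbp8, Gbp9, Iigp1, Zbp1, Dhx58, Mx1, Oas2, Usp18, Rtp4 and Parp14.

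The 150 bases before the start site are shown for the genes that the results turn on and for 3 typical targets, with the ISRE and GAS cores in capitals (RefSeq, GRCm38.p6, 5′ to 3′ on the gene's strand). Igtp and Irgm2 are neighbouring IRG genes, and each carries a GAS core followed by an ISRE core, at bases -45 and -34 in Igtp and at -75 and -64 in Irgm2, counted back from the start site.
Igtp, chr11:58199406-58199555, plus strand: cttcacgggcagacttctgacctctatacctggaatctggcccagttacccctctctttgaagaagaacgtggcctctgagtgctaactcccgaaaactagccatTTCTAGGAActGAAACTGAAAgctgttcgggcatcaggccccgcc
Irgm2, chr11:58214827-58214976, plus strand: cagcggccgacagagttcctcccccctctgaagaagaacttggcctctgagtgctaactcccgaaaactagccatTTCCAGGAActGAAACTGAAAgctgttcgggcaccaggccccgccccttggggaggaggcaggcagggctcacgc
Irf1, shown at the first of its start sites, carries a GAS core at base -90, Gbp2 an ISRE core on the opposite strand, and Samhd1 neither core in these 150 bases.
Irf1, chr11:53769864-53770013, plus strand: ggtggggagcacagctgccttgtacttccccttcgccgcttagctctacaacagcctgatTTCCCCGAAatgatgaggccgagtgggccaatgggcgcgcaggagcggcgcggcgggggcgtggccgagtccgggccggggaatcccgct
Gbp2, chr3:142620513-142620662, plus strand: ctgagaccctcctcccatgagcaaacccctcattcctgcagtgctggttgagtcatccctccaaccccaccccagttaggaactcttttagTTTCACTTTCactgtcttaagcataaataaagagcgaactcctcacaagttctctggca
Samhd1, chr2:157135097-157135246, minus strand: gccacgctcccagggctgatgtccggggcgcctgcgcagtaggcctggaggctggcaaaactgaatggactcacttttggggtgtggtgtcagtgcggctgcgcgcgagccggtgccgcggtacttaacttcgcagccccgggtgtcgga
The type I targets Isg15, with 3 overlapping ISRE cores, and Ifit3, with 1 on the opposite strand in these 150 bases, are given for comparison. A second ISRE core of Ifit3 starts at base -156 and is cut off here. The start site used for Ifit3 lies inside the gene, which begins at base 34583119.
Isg15, chr4:156200819-156200968, minus strand: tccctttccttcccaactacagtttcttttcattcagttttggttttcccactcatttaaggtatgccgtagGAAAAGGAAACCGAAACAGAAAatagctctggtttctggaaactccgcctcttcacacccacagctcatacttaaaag
Ifit3, chr19:34583379-34583528, plus strand: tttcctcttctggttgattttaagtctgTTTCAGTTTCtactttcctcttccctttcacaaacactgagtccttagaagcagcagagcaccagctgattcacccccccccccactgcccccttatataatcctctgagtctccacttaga

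How far the genes can be read depended on their level. Over the 18 samples 16 of the 49 genes had a mean of at least 1000 normalized counts, and the standard deviation between samples of a group, on the log2(normalized count + 1) scale, had a median of 0.459 among them, against 0.36 for all 2767 genes of that level. Another 22 genes had a mean of 200 to 1000 and a median SD of 0.771, and the 11 below 200 had a median SD of 1.99. Samhd1, Irf8, Igtp and Irf1 had the most reproducible values, with SDs of 0.224 to 0.313. Gbp4, a GBP with a mean of 1005, stood apart with an SD of 1.44, since 1 Nr2f6+/+ anti-PD-L1 sample held 20.4 normalized counts and the other 5 between 903 and 1530. Oas2, which makes the RNase L activator 2-5A, had a mean of 1.21, was at 0 in 12 samples and was not tested, which left 48 genes.

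**Figure D1:**
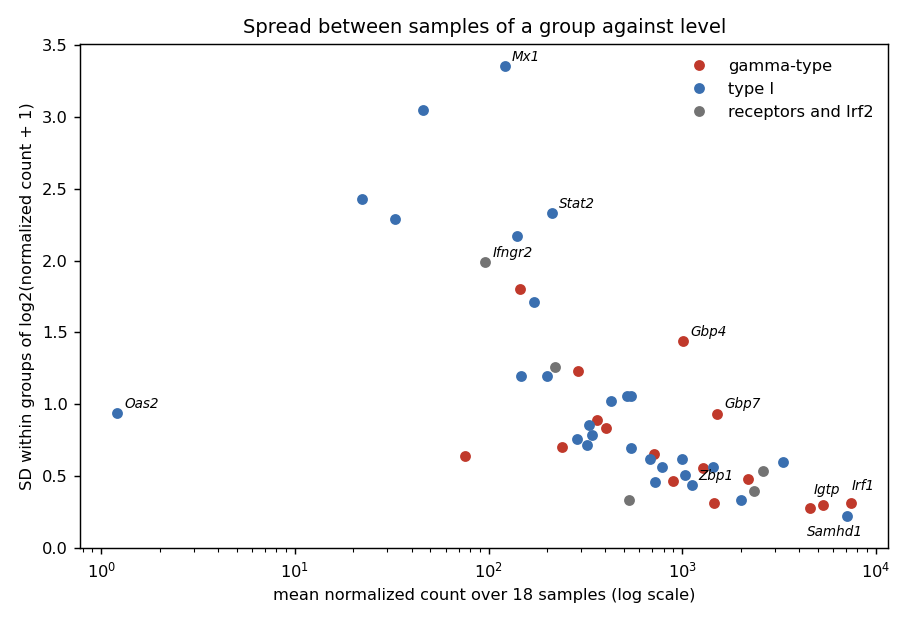
Standard deviation of log2(normalized count + 1) within groups (vertical axis) against the mean normalized count over 18 samples (horizontal axis, log scale), with 1 point for each of the 49 genes, red for gamma-type, blue for type I and grey for receptors and Irf2. The SD was 0.224 for Samhd1 and 3.35 for Mx1, and Gbp4 and Gbp7 lie above the other genes of their level.

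The genotypes were first compared under anti-PD-L1, with 6 samples a group. No interferon gene passed an adjusted p of 0.05 in limma, and 0.175% of the 11992 genes tested did. The smallest adjusted p among them was 0.121, for Igtp. At an unadjusted p under 0.05, 4 of 48 were higher in Nr2f6-/- TILs (Irf1, Igtp, Zbp1 and Samhd1) and none was lower, while 4.66% of all genes were higher and 5.07% lower at that limit. In Igtp and Samhd1 the groups did not overlap, all 6 Nr2f6-/- samples lying above all 6 Nr2f6+/+ samples, as was the case for 0.392% of all genes, and no gene of the set was separated downward (0.2% of all genes). By edgeR on the recovered reads none passed the adjusted threshold (0.183% of all genes did), and by DESeq2 Igtp (adjusted p = 0.0116) and Samhd1 (adjusted p = 0.0418) did, where DESeq2 called 1.57% of all genes.

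Under IgG2b, with 3 samples a group, limma called no gene of the set and 0% of all genes. At an unadjusted p under 0.05, Igtp, Zbp1 and Samhd1 were again the ones higher in Nr2f6-/- TILs and Oas3, a further 2-5A synthetase, was lower, against 2.03% of all genes higher and 3.32% lower. EdgeR called none of the set and 0% of all genes, and DESeq2 none of the set and 0.75%. The groups did not overlap for Zbp1 and Oasl2 (higher) and for Dhx58 and Oas3 (lower), where 6.1% and 8.07% of all genes were separated upward and downward. The difference between the genotype effects under the 2 treatments had no adjusted p below 0.974 in limma for any of the 48 genes, none had an unadjusted p under 0.05, and the adjusted threshold was met by 0% of all genes and the unadjusted one by 4.97%. EdgeR and DESeq2 called none of the set for this difference, and 0% and 0.648% of all genes.

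**Figure D2:**
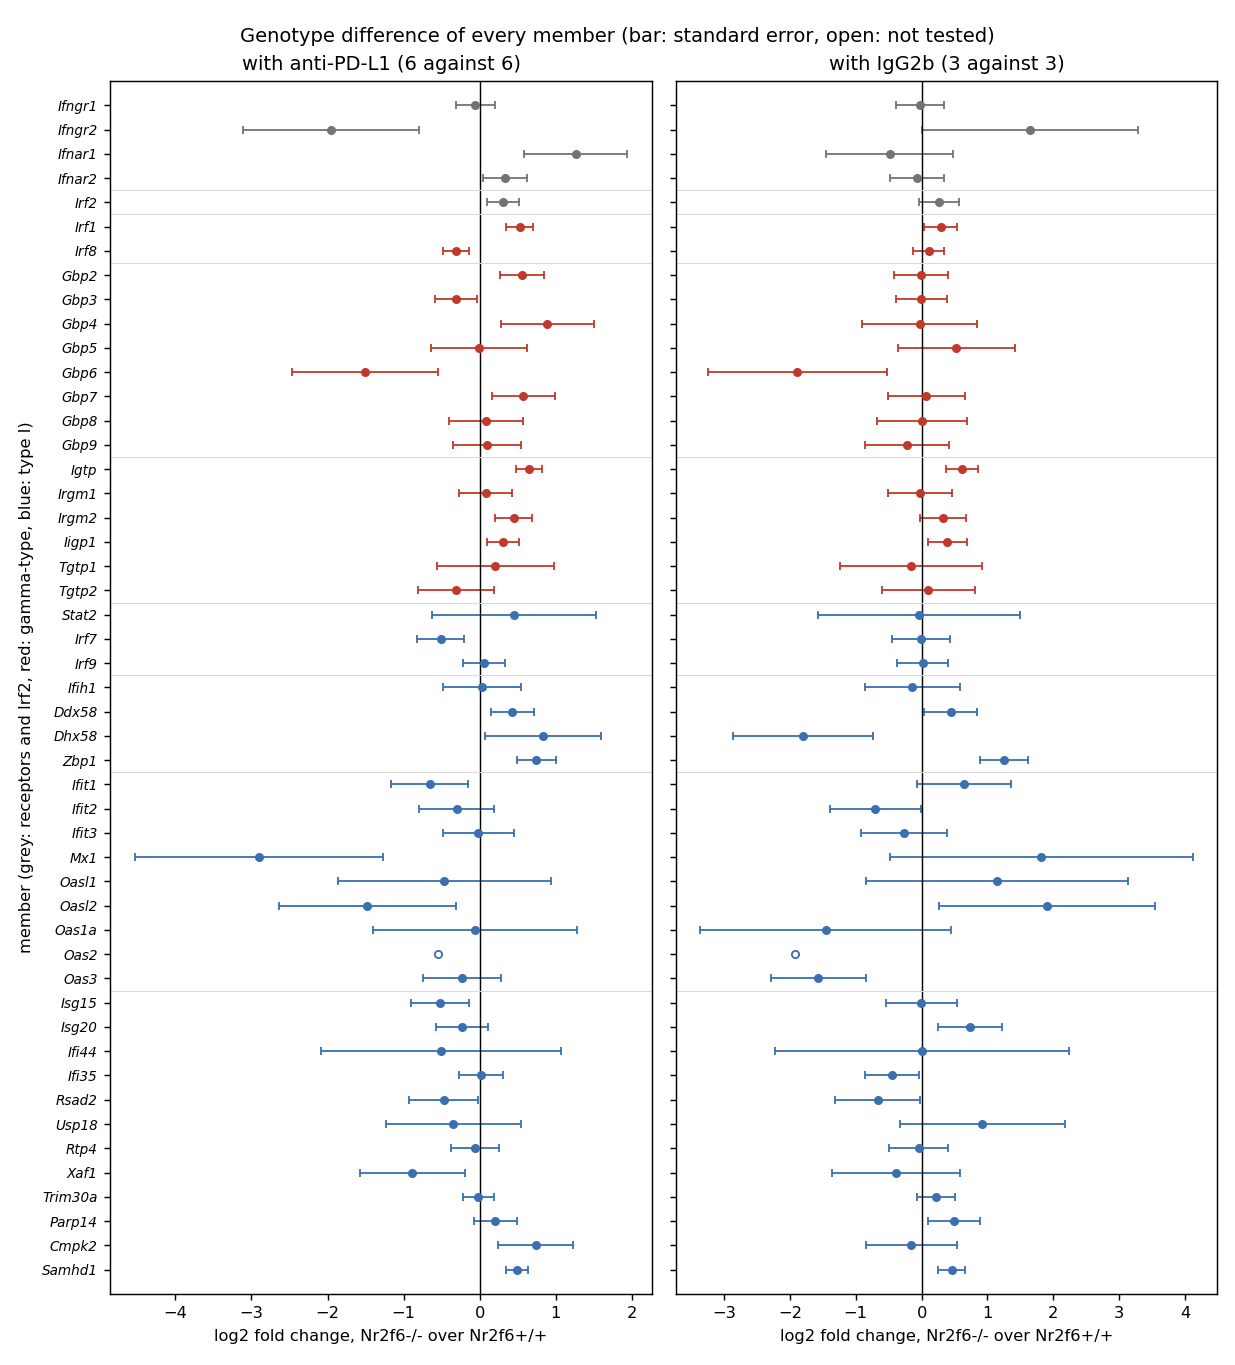
Log2 fold change of Nr2f6-/- over Nr2f6+/+ TILs (horizontal axis) for each of the 49 genes (rows, by role), with anti-PD-L1 on the left and IgG2b on the right. Points are limma estimates, bars their standard errors, and the open point is Oas2, which was not tested. Igtp, Zbp1 and Samhd1 lie right of 0 by more than 2 standard errors in both panels, while most OAS, IFIT and Mx genes have bars that span 1 log2 unit or more.

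Anti-PD-L1 against IgG2b was compared within each genotype. In Nr2f6+/+ TILs limma called none of the 48 genes and 0.242% of all genes. At an unadjusted p under 0.05, Isg20, an RNA exonuclease, was higher and Gbp2 was lower, against 2.19% of all genes higher and 5.05% lower. Rsad2, the antiviral enzyme viperin, lay lower without overlap, like 3.22% of all genes, and no gene of the set lay higher without overlap (1.32% of all genes). EdgeR and DESeq2 called none of the set, and 0.158% and 0.801% of all genes. In Nr2f6-/- TILs limma called none and 0.325% of all genes. Oas3, Ifi35 and Cmpk2 were higher and Ifngr2 and Oasl2 lower at an unadjusted p under 0.05, against 4.34% of all genes higher and 5.35% lower. Tgtp1 and Ifi35 (higher) and Oasl2 (lower) did not overlap, where 1.97% and 3.15% of all genes were separated upward and downward. EdgeR and DESeq2 called none of the set, and 0.3% and 1.96% of all genes.

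The combination of Nr2f6 loss and anti-PD-L1 was set against Nr2f6+/+ IgG2b, a comparison of 6 with 3 samples that shares its samples with the ones above. Limma called none of the 48 genes and 0.617% of all genes, and the smallest adjusted p values were 0.0841 for Samhd1 and 0.0859 for Zbp1. At an unadjusted p under 0.05, Irf1, Igtp, Irgm2, Iigp1, Zbp1 and Samhd1 were higher and Rsad2 was lower, against 3.12% of all genes higher and 5.92% lower. Igtp, Iigp1 and Samhd1 did not overlap, all higher, like 2.17% of all genes, and none of the set was separated downward (4% of all genes). EdgeR called none of the set and 0.342% of all genes. DESeq2 called Samhd1 (adjusted p = 0.00862) and Zbp1 (adjusted p = 0.012) and 1.51% of all genes.

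Among the ligands, Ifng was the only 1 of 8 interferon genes that passed the filter on low values. It was at 2730, 2076 and 3061 normalized counts in Nr2f6+/+ IgG2b and at 3620, 3934 and 3900 in Nr2f6-/- IgG2b. Under anti-PD-L1 it had a median of 3777 (2662 to 4909) in Nr2f6+/+ and of 4218 (3498 to 8672) in Nr2f6-/- TILs. Under IgG2b the Nr2f6-/- samples lay above the Nr2f6+/+ samples without overlap, like 6.1% of all genes. The combination also lay above Nr2f6+/+ IgG2b without overlap, like 2.17% of all genes. This log2 difference was 0.91 (SE 0.247, adjusted p = 0.0927 in limma). DESeq2 called Ifng for the combination (log2 0.98, adjusted p = 0.0161), where 1.51% of all genes were called.

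None of the receptor chains passed the test in any comparison. Ifngr1, the ligand-binding chain for interferon gamma, had group means between 2322 and 2972 normalized counts. Ifngr2, the signalling chain, was low and scattered, with 404.3, 268.6 and 90.6 in Nr2f6-/- IgG2b and a median of 9.91 (0 to 103.9) in Nr2f6-/- anti-PD-L1. This was the lowest p of the receptors, with a log2 difference of -4.14 (SE 1.42, adjusted p = 0.274 in limma), and the samples of both groups overlapped. With the mean of the macrophage markers as a covariate the difference was -0.89 (SE 2.21). Ifnar1 and Ifnar2, the chains for type I interferon, had group means of 164.7 to 295.1 and of 453.6 to 598.2.

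Of the gamma-type regulators, Irf1 (chr11:53770014-53778374) stood at a median of 10100 normalized counts (5566 to 11230) in Nr2f6-/- anti-PD-L1 and of 6341 (4895 to 7255) in Nr2f6+/+ anti-PD-L1. In 5 of the 6 Nr2f6-/- samples it was above every Nr2f6+/+ sample, and in 1 it was within their range. The difference was 1.44-fold on the log2(normalized count + 1) scale (log2 0.52, SE 0.172, adjusted p = 0.278 in limma). It was 0.76 within the first library set and 0.29 within the second. Under IgG2b the values were 4666, 6337 and 7736 in Nr2f6+/+ and 8299, 6888 and 7271 in Nr2f6-/- TILs, which overlapped (log2 0.29, SE 0.244, adjusted p = 0.989). An antisense gene, Gm17334, overlaps exons of Irf1, and the strand setting of the counting was not given in the sources used here.

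Irf8, a regulator of myeloid genes that activated T cells also express, had group means of 4500, 4834, 5052 and 4026 in Nr2f6+/+ IgG2b, Nr2f6-/- IgG2b, Nr2f6+/+ anti-PD-L1 and Nr2f6-/- anti-PD-L1. Irf2, the antagonist of Irf1, had means of 1956, 2398, 2239 and 2634 in the same order, and its lowest p was that of the combination against Nr2f6+/+ IgG2b (log2 0.43, SE 0.264, adjusted p = 0.712 in limma). Both genes lie on chromosome 8 with Nr2f6, Irf2 at 24.5 Mb and Irf8 at 49.4 Mb from it.

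The IRG GTPases held the gene with the smallest p between the genotypes under anti-PD-L1. Igtp (chr11:58199556-58207592), which encodes Irgm3, a regulator that keeps the effector IRGs inactive on the cell's own membranes, was at a median of 6411 normalized counts (4716 to 8912) in Nr2f6-/- and of 4282 (3332 to 4670) in Nr2f6+/+ anti-PD-L1. The groups did not overlap, with a narrow gap between 4670 and 4716. The difference was 1.57-fold (log2 0.65, SE 0.172, unadjusted p = 0.000704, adjusted p = 0.121 in limma), 0.86 within the first library set and 0.45 within the second, and 0.71 with the macrophage marker mean as a covariate.

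Under IgG2b Igtp was at 4419, 4179 and 3919 in Nr2f6+/+ and at 7851, 4278 and 7670 in Nr2f6-/- TILs. The second Nr2f6-/- sample lay within the range of the wild type, and the other two lay above it. The log2 difference was 0.61 (SE 0.243, adjusted p = 0.872 in limma). Between anti-PD-L1 and IgG2b, Igtp differed by -0.04 (SE 0.211) in Nr2f6+/+ and by 0.0022 (SE 0.211) in Nr2f6-/- TILs. The combination was 0.61 above Nr2f6+/+ IgG2b (SE 0.211, adjusted p = 0.23).

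**Figure D3:**
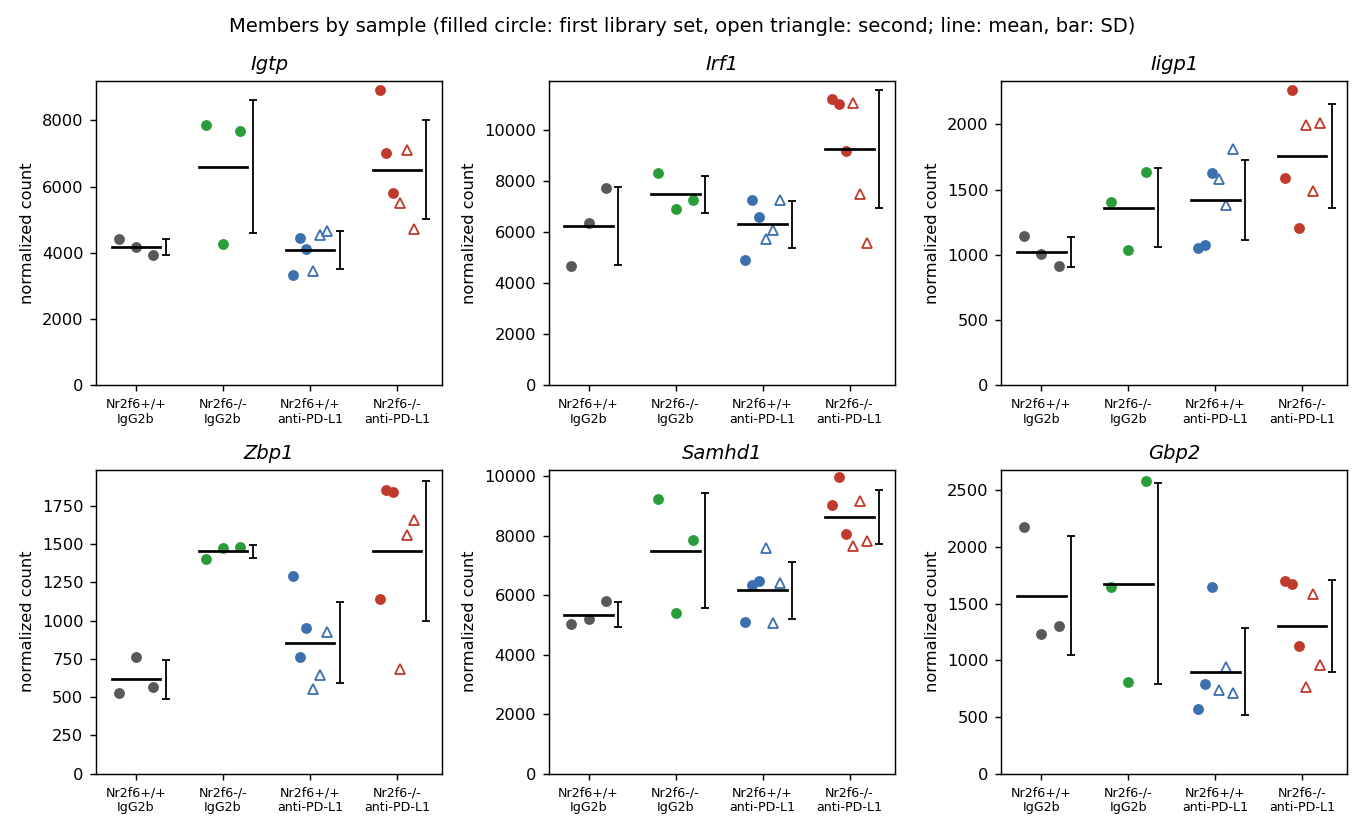
Normalized count (vertical axes) of Igtp, Irf1, Iigp1, Zbp1, Samhd1 and Gbp2 in every sample of the 4 groups. Filled circles are the first library set, open triangles the second, lines the means and bars the SD. Under anti-PD-L1 the Nr2f6-/- samples of Igtp (from 4716) and Samhd1 (from 7673) lie above all Nr2f6+/+ samples, and under IgG2b those of Zbp1 do (from 1404, against up to 763).

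Irgm2 (chr11:58214977-58222783), the other regulatory IRG next to Igtp, had a median of 2636 (1803 to 3676) in Nr2f6-/- and of 1980 (1086 to 3425) in Nr2f6+/+ anti-PD-L1, with overlap (log2 0.45, SE 0.244, adjusted p = 0.576 in limma). In GENCODE exons of Igtp and Irgm2 overlap on the same strand, so reads in the shared exons could count for either. In the last 500 bases of their transcripts no run of 30 bases was shared with another gene.

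Iigp1 is an effector IRG, which coats pathogen vacuoles. It was at 1145, 1009 and 916.2 in Nr2f6+/+ IgG2b and at 1406, 1039 and 1637 in Nr2f6-/- IgG2b. Under anti-PD-L1 the medians were 1481 (1054 to 1808) in Nr2f6+/+ and 1792 (1202 to 2265) in Nr2f6-/- TILs. All 6 samples of the combination were above all 3 of Nr2f6+/+ IgG2b, a 1.69-fold difference (log2 0.75, SE 0.257, adjusted p = 0.225 in limma), which was 0.68 within the first library set.

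Irgm1, Tgtp1 and Tgtp2 were lower and more scattered, with group means of 601.3 to 771, of 42.7 to 99.3 and of 202.4 to 292. Tgtp1 and Tgtp2 are near-identical copies: 85.3% and 100% of the 30-base runs at their 3′ ends occur in other genes, so reads could be split between them. As a group, 5 of the 6 IRGs had a positive log2 difference between the genotypes under anti-PD-L1, with a median of 0.26, where 49.6% of all genes were positive and their median was -0.0049. For the combination against Nr2f6+/+ IgG2b all 6 were positive, with a median of 0.67 against -0.12 for all genes, of which 42.1% were positive, and all 6 stayed positive under quantile normalization and under scaling to the same total. Within the first library set 5 of 6 were positive in this comparison and the median was 0.63.

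The 8 GBPs were spread on both sides of 0. Under anti-PD-L1, 5 were higher and 3 lower in Nr2f6-/- TILs, with log2 differences between -1.50 (Gbp6) and 0.89 (Gbp4) and a median of 0.09. The Gbp4 value includes 1 Nr2f6+/+ sample at 20.4, and the group means were 979.2 in Nr2f6+/+ and 1134 in Nr2f6-/- TILs. In the combination 2 GBPs were higher and 6 lower than in Nr2f6+/+ IgG2b, with a median of -0.25. None of the 8 had an unadjusted p under 0.05 in either comparison.

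Gbp2 (chr3:142620663-142638008), a GBP that T cells and macrophages induce with interferon gamma, had the lowest p of the family. It was at 2180, 1230 and 1306 normalized counts in Nr2f6+/+ IgG2b and at 1648, 805.7 and 2580 in Nr2f6-/- IgG2b. Its median was 763.8 (573.3 to 1651) in Nr2f6+/+ and 1358 (766.1 to 1698) in Nr2f6-/- anti-PD-L1. In Nr2f6+/+ TILs it was lower with anti-PD-L1 than with IgG2b (log2 -0.84, SE 0.351, adjusted p = 0.578 in limma), and the groups overlapped. With the macrophage marker mean as a covariate this difference was -0.29 (SE 0.591). The genotypes differed by 0.56 under anti-PD-L1 (SE 0.287, adjusted p = 0.543) and by -0.01 under IgG2b (SE 0.406).

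Gbp3, Gbp4, Gbp5, Gbp7, Gbp8 and Gbp9 had group means of 784.7 to 961.7, 902.5 to 1134, 254.1 to 394.2, 1346 to 1720, 355.5 to 367.1 and 383.8 to 427.4, and Gbp6 of 76.7 to 197.7. Gbp4 and Gbp7 were both low in the second Nr2f6+/+ anti-PD-L1 sample, at 20.4 and 149.9, where the lowest of the other 5 samples had 903.4 and 1265. In Gbp6 88.7% and in Gbp4 30.5% of the 30-base runs at the 3′ ends are shared with other genes, mainly of the Gbp cluster on chromosome 5, so reads could move between these copies.

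Of the type I nucleic acid sensors, Zbp1 (chr2:173206612-173218959), which senses Z-form nucleic acid and can start necroptosis, had the largest genotype difference under IgG2b among the 16 genes with a mean of at least 1000. It was at 525.3, 763 and 565.5 normalized counts in Nr2f6+/+ and at 1404, 1474 and 1481 in Nr2f6-/- TILs. The groups were far apart, and the 3 Nr2f6-/- values lay close together. The difference was 2.38-fold (log2 1.25, SE 0.364, unadjusted p = 0.00178, adjusted p = 0.61 in limma).

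Under anti-PD-L1 Zbp1 had a median of 1608 (685.2 to 1854) in Nr2f6-/- and of 845.1 (554 to 1293) in Nr2f6+/+ TILs. In 4 of the 6 Nr2f6-/- samples it exceeded every Nr2f6+/+ sample. The log2 difference was 0.74 (SE 0.257, adjusted p = 0.315 in limma), 0.68 within the first library set and 0.81 within the second. For the combination against Nr2f6+/+ IgG2b it was 1.18 (SE 0.315, adjusted p = 0.0859), with the value of 1 Nr2f6-/- sample, 685.2, inside the control range. Without that sample, the fourth replicate, it was 1.38, with an adjusted p of 0.0195 in limma. Over all 9 fits that each left out 1 sample, the adjusted p ranged from 0.0195 to 0.363. With the macrophage marker mean as a covariate the difference was 0.86 (SE 0.629, adjusted p = 0.751 in limma). This mean did not overlap between the IgG2b and the anti-PD-L1 groups, so it is hard to separate from the treatment. Between the genotypes under anti-PD-L1 the Zbp1 difference was 0.68 with this covariate (SE 0.28, adjusted p = 0.316 in limma).

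The other sensors recognise viral RNA in the cytosol. Ddx58 (RIG-I) had group means of 1275, 1767, 1225 and 1555 in Nr2f6+/+ IgG2b, Nr2f6-/- IgG2b, Nr2f6+/+ anti-PD-L1 and Nr2f6-/- anti-PD-L1. Ifih1 (MDA5) had means of 427.3, 496.3, 422.3 and 404.8, and Dhx58 (LGP2) of 158.6, 55.9, 142.7 and 190.1. Under anti-PD-L1 all 4 sensors had a positive genotype difference, with a median of 0.59, where 49.6% of all genes were positive. The log2 differences ran from 0.03 (Ifih1, SE 0.512) to 0.83 (Dhx58, SE 0.759), and 3 of 4 were positive within the second library set. Replicate 2 of Nr2f6+/+ anti-PD-L1 was the lowest of its group for Ifih1 (104) and Ddx58 (382.3). Under IgG2b 2 sensors were positive and 2 negative, with log2 differences from -1.80 (Dhx58) to 1.25 (Zbp1).

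Samhd1 (chr2:157097534-157135096), a dNTP hydrolase that limits the nucleotides open to retroviruses, was the other gene with separated genotypes under anti-PD-L1. Its median was 8551 normalized counts (7673 to 9974) in Nr2f6-/- and 6369 (5076 to 7597) in Nr2f6+/+ TILs. All Nr2f6-/- samples were higher, with a narrow gap between 7597 and 7673. The difference was 1.41-fold (log2 0.49, SE 0.149, adjusted p = 0.22 in limma), 0.60 within the first library set and 0.39 within the second.

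Under IgG2b Samhd1 was at 5043, 5199 and 5817 in Nr2f6+/+ and at 9236, 5406 and 7856 in Nr2f6-/- TILs. As for Igtp, the second Nr2f6-/- sample was inside the wild-type range and the other two above it (log2 0.45, SE 0.21, adjusted p = 0.918 in limma). The combination was 1.61-fold above Nr2f6+/+ IgG2b without overlap (log2 0.68, SE 0.182, adjusted p = 0.0841 in limma). With the macrophage marker mean as a covariate, which is hard to separate from the treatment, this log2 value was 0.56 (SE 0.367, adjusted p = 0.698 in limma). Between the genotypes under anti-PD-L1 the Samhd1 difference was 0.47 with this covariate (SE 0.163, adjusted p = 0.237 in limma).

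The type I regulators did not differ by the test. Irf9, the DNA-binding part of the ISGF3 complex, had group means of 2461, 2454, 3848 and 3659 in Nr2f6+/+ IgG2b, Nr2f6-/- IgG2b, Nr2f6+/+ anti-PD-L1 and Nr2f6-/- anti-PD-L1. Its lowest p was that of the combination against Nr2f6+/+ IgG2b (log2 0.58, SE 0.337, adjusted p = 0.668 in limma). This value changed sign, to -0.73 (SE 0.613, adjusted p = 0.799 in limma), with the macrophage marker mean as a covariate. Irf7, which amplifies type I interferon production, had means of 894.2, 869.2, 857.2 and 620.1. Stat2, the partner of Irf9, had means of 147.9 to 268.6 and was at 0 in 1 Nr2f6-/- anti-PD-L1 sample.

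The OAS, IFIT and Mx effectors were often at or near 0. Mx1, Oasl1, Oasl2, Oas1a and Oas2 were each at 0 in at least 1 sample, Mx1 in 3, Oasl1 in 4, Oasl2 in 1, Oas1a in 2 and Oas2 in 12. RefSeq annotates Mx1 of this strain as a transcribed pseudogene. Under anti-PD-L1 all 9 had a negative genotype difference, with a median of -0.46 and a range of -2.90 to -0.02. Among all genes 49.6% were positive. Oas2, 1 of the 9, was not tested, and only 1 of its anti-PD-L1 values, 5.22 in Nr2f6+/+, was above the floor of 3 reads. By quantile normalization 7 of 9 were negative. Within the library sets it was 5 of 9 (median -0.14) in the first and 7 of 9 (median -0.90) in the second. None had an unadjusted p under 0.05.

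Oasl2, an OAS-like protein, had the lowest p of this family. It was at 529.9, 290.2 and 397.6 normalized counts in Nr2f6-/- IgG2b and at a median of 31.7 (0 to 165.8) in Nr2f6-/- anti-PD-L1, with no overlap. The log2 difference was -4.49 (SE 1.42, adjusted p = 0.231 in limma). In Nr2f6+/+ TILs it was at 62.4, 248.1 and 74.6 with IgG2b and at a median of 57.5 (10.2 to 357.3) with anti-PD-L1, which overlapped. The genotype difference under anti-PD-L1 was -1.48 (SE 1.16), 0.72 within the first library set and -3.67 within the second.

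Ifit1, Ifit2 and Ifit3, which bind viral RNA and block its translation, had group means of 391.1 to 727.7, 258.8 to 496.3 and 309.9 to 386.4. Oas3 had means of 557, 252.1, 618.5 and 539.3, with 47.9 in 1 Nr2f6-/- IgG2b sample. Between 3′ copies, 25.1% of the 30-base runs of Ifit3 occur in Ifit3b and 70.7% of those of Oas1a in Oas1g.

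Among the other 11 type I effectors beside Samhd1, Trim30a and Parp14 had means of 2004 and 1032 over all samples. Trim30a, a brake on NF-kappaB signalling, had group means of 1981, 2203, 1970 and 1951. Isg15, a ubiquitin-like modifier, had means of 556.4, 639.6, 594.5 and 438.1. Rsad2 was at 542, 512.8 and 499.2 in Nr2f6+/+ IgG2b and at a median of 190.7 (106.9 to 580.4) in the combination, a log2 difference of -1.39 (SE 0.557, adjusted p = 0.366 in limma). Usp18, which removes ISG15 and silences the type I receptor, had means of 132.2 to 293.8, and Ifi44 was at 0 in 4 samples.

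To contrast the gamma-type with the type I genes, log2(normalized count + 1) was averaged over the 16 and over the 28 genes in each sample. The gamma-type mean was 9.54 ± 0.181 (SD, n = 3) in Nr2f6+/+ IgG2b, 9.54 ± 0.175 (n = 3) in Nr2f6-/- IgG2b, 9.53 ± 0.25 (n = 6) in Nr2f6+/+ anti-PD-L1 and 9.66 ± 0.255 (n = 6) in Nr2f6-/- anti-PD-L1. The type I mean was 7.99 ± 0.199, 8.01 ± 0.303, 7.97 ± 0.377 and 7.75 ± 0.223 in the same order. All groups overlapped in both means.

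Gamma-type minus type I was 1.55 ± 0.122, 1.54 ± 0.289, 1.56 ± 0.553 and 1.91 ± 0.355. The Nr2f6-/- anti-PD-L1 group was higher than Nr2f6+/+ anti-PD-L1 by 0.35, less than the spread within groups of 0.41, and the samples ranged from 1.40 to 2.31 and from 0.95 to 2.56. It differed between the library sets, at 0.0080 in the first library set and 0.68 in the second. The genotypes differed by -0.01 under IgG2b. Against Nr2f6-/- IgG2b and Nr2f6+/+ IgG2b, Nr2f6-/- anti-PD-L1 was higher by 0.37 and 0.36. Since the genes were chosen with results of these samples known, no p-value was computed for these means. In counts of genes, 11 of 16 gamma-type and 10 of 28 type I genes had a positive genotype difference under anti-PD-L1, with medians of 0.15 and -0.15. It was 9 of 16 and 16 of 28 within the first library set and 10 of 16 and 13 of 28 within the second.

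**Figure D4:**
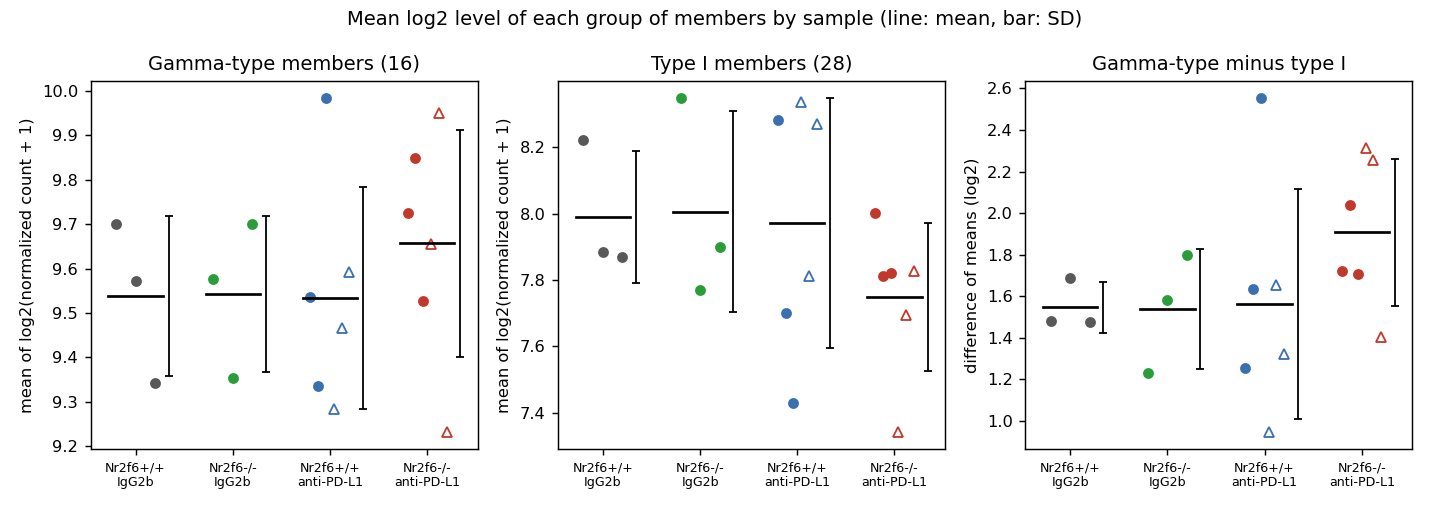
Mean of log2(normalized count + 1) over the 16 gamma-type genes (left) and the 28 type I genes (middle) and their difference (right) in every sample of the 4 groups, with the vertical axes not starting at 0. Filled circles are the first library set, open triangles the second, lines the means and bars the SD. The groups overlap in each panel, and Nr2f6-/- anti-PD-L1 has the highest mean difference, at 1.91 ± 0.355.

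The rest of the pathway was read from lists of 8 ligands, 7 kinases and inhibitors, 13 further gamma-type targets and 30 further type I targets with a row. Limma called none of these between the genotypes under either treatment. Socs3, a feedback inhibitor of cytokine receptors, had the smallest adjusted p, with a log2 difference of 1.41 (SE 0.326, adjusted p = 0.0634) under anti-PD-L1. The groups overlapped. In the first library set alone the Socs3 difference was 2.18 (adjusted p = 0.00704 in limma), and with a pseudocount of 10 it was 1.39 (adjusted p = 0.0445). Leaving out single samples, it ranged from 1.24 to 1.68, with adjusted p from 0.0105 to 0.177 in limma. DESeq2 called Socs3 (adjusted p = 0.00384) and Ifi47 (adjusted p = 0.0457) in this comparison. Ifi47, another IRG, was 0.51 higher under anti-PD-L1 (SE 0.158, adjusted p = 0.235) and 0.62 higher under IgG2b (SE 0.223, adjusted p = 0.846) in Nr2f6-/- TILs. Tap1, the peptide transporter for MHC class I, was 0.25 (SE 0.137) and 0.48 (SE 0.194) higher. Under anti-PD-L1, 3 of 29 further type I targets tested rose in Nr2f6-/- TILs at an unadjusted p under 0.05 in limma, and 3 fell. At that limit 4.66% of all genes were higher and 5.07% lower. Among those that rose were Parp9 (log2 0.90, SE 0.289) and Dtx3l (0.53, SE 0.258). Those that fell were Slfn5 (log2 -3.48, SE 1.23), Ifi204 (-3.00, SE 1.1) and Ifitm3 (-0.94, SE 0.374). Of the 11 further gamma-type targets tested 2 rose at that limit, Ifi47 and Psmb9 (0.38, SE 0.153), and 1 fell, Ciita (-3.28, SE 1.26). Of the 7 kinases and inhibitors 2 rose, Socs3 and Jak1 (0.37, SE 0.166), and 0 fell.

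In limma the only gene of these lists that passed the test in any comparison was Ifitm3. It blocks viral entry and is expressed in many cell types, myeloid cells among them. In the combination it fell by 2.22 on the log2 scale relative to Nr2f6+/+ IgG2b (SE 0.458, adjusted p = 0.0144 in limma), and in Nr2f6-/- TILs with anti-PD-L1 it fell by 2.19 relative to IgG2b (SE 0.458, adjusted p = 0.0208). It was at 1855, 2224 and 1701 in Nr2f6+/+ IgG2b, at 1359, 1977 and 2473 in Nr2f6-/- IgG2b and at a median of 411.7 (233.6 to 761.6) in the combination. In Nr2f6+/+ TILs Ifitm3 was also lower with anti-PD-L1, at a median of 949.9 (289.5 to 1994), with a log2 difference of -1.28 (SE 0.458, unadjusted p = 0.00891, adjusted p = 0.455) and overlap with IgG2b. The difference between the effects of anti-PD-L1 in the genotypes was -0.91 (SE 0.648, adjusted p = 0.975). The summed macrophage markers differed in the same direction between these groups. With their mean as a covariate both called differences missed the threshold, while the estimates changed little (-2.07, adjusted p = 0.503, and -2.08, adjusted p = 0.335 in limma). This mean did not overlap between the IgG2b and the anti-PD-L1 groups, so the covariate is hard to separate from the treatment. Both calls were also lost without any 1 of the IgG2b samples compared, with adjusted p from 0.0685 to 0.177. In bulk samples fewer cells of a type and less RNA per cell cannot be told apart.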

How the data were processed

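RNA-seq of CD3+ TILs (QuantSeq 3′ mRNA libraries, 18 samples, 12473391 to 18609482 reads on genes) was used. The authors trimmed reads with Cutadapt and Trimmomatic, removed those under 22 nucleotides, mapped to mm10 with STAR and then Bowtie2, and counted reads per gene with HTSeq. Annotation, strand setting and versions were not given in the sources used here. Each deposited signal is a gene's read count in 1 sample divided by that sample's DESeq2 size factor. All values were whole multiples of 1 step within 0.01 (100% of values, size factors 0.823 to 1.22), which gave the reads back for edgeR and DESeq2. The values hold no molecular identifiers, and floors therefore cover only counting error. No pair of the 153 pairs of samples was identical (0).

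Groups were taken from the labels. The main test was limma (version 3.58.1, R 4.3.3, eBayes with trend) on log2(normalized count + 1) in 1 model of the 4 groups over 18 samples, for 11992 genes with a mean of at least 10, two-sided, with Benjamini-Hochberg adjustment and a threshold of 0.05. Group comparisons were contrasts of this model, tested on simulated data beforehand, and fold changes understate low genes. The 49 genes, their lists and the marker lists were chosen with earlier results of these data known. Of the pathway lists, 6 genes had no row, and 1 further gene is not reported here. Genes described in full had an unadjusted p under 0.01 in any comparison or the smallest p of their list (10 genes). Others stand as ranges and counts, and any further gene named was picked after seeing its values. Promoters are from RefSeq (GRCm38.p6), and copies and exon overlaps from GENCODE. Alternatives were pseudocounts of 0.5 and 10, filters of 0 and 50 on the mean, quantile normalization, equal totals, only the groups compared, the library set or the macrophage marker mean as a covariate, a replicate block, each library set alone, edgeR (version 4.0.16), DESeq2 (version 1.42.0), medians over genes, and leaving out each replicate.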

Additional observations from a re-analysis of the deposited data

Results flagged for a closer look

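Within the anti-PD-L1 groups, 1 sample lay far from the other 5 for 13 of the 98 gene and group pairs examined, where its gap to the nearest of the others, as a share of the range, was above Dixon's critical value on the log2(normalized count + 1) scale. The rule flags about 1 in 20 groups of normally distributed values, which values at or near 0 are not. The share flagged among all genes was not computed, so no excess in this set can be read from the 13. Replicate 2 of Nr2f6+/+ anti-PD-L1 accounted for 4 of the 13, all low: Ifnar1 at 6.12 normalized counts (others 136 to 233), Gbp4 at 20.4 (903 to 1530), Gbp7 at 150 (1270 to 2280) and Ddx58 at 382 (1170 to 1790). In Nr2f6+/+ anti-PD-L1, Gbp9 was at 67.7 in replicate 4 (382 to 587) and Oas2 at 5.22 in replicate 1 (0 to 0.928).

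In Nr2f6-/- anti-PD-L1, Stat2 was at 0 (107 to 470) and Ifit2 at 75.9 (216 to 351) in replicate 4. In replicate 5, Gbp3 was at 1470 (588 to 716) and Usp18 at 1.8 (79 to 274). In replicate 6, Gbp5 was at 23.1 (253 to 359) and Rsad2 at 580 (107 to 195). Oas2 was at 1.21 in replicate 3 and at 0 in the others, which is under the floor of 3 reads.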

How the results depend on the processing

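The 10 genes described in full gave 1420 values over 6 comparisons and all alternatives. Of these, 97 had the opposite sign to the reported value, none of them past the threshold, and 87 of the 97 belonged to reported differences under 0.3 on the log2 scale. Past the threshold were 7 values. The counts of genes called differed from 0 in these cases. DESeq2 called 2 genes between the genotypes under anti-PD-L1 (Igtp, log2 0.67, and Samhd1, 0.49) and 2 for the combination against Nr2f6+/+ IgG2b (Zbp1, 1.24, and Samhd1, 0.69). For the combination, a covariate for the library set and leaving out replicate 4 of Nr2f6-/- anti-PD-L1 each called 1 gene, Zbp1 (1.40, adjusted p = 0.0318, and 1.38, adjusted p = 0.0195). Leaving out each sample in turn gave 0 to 1 called genes for the combination and 0 to 0 for the other comparisons. With the macrophage marker mean as a covariate the sign changed for Irf9 (combination -0.73, SE 0.613, anti-PD-L1 -0.53, SE 0.526, in Nr2f6+/+ and -0.42, SE 0.505, in Nr2f6-/-). It also changed for Ifngr2 (combination 1.81, SE 2.68, anti-PD-L1 in Nr2f6+/+ 2.92, SE 2.3) and Oasl2 (anti-PD-L1 in Nr2f6+/+ 0.66, SE 2.4). The same held for Gbp2 (genotype under IgG2b 0.16, SE 0.426) and Igtp (anti-PD-L1 in Nr2f6+/+ 0.21, SE 0.359). The marker mean did not overlap between the IgG2b and the anti-PD-L1 groups, so this covariate is hard to separate from the treatment. In the first library set alone the genotype difference under anti-PD-L1 was 0.72 for Oasl2 and -0.18 for Irf2. Values reported near 0 changed sign for Gbp2 under IgG2b (edgeR 0.10, DESeq2 0.094), for Igtp with anti-PD-L1 in Nr2f6+/+ (0.021 with the library set as a covariate and 0.021 with the replicate block) and in Nr2f6-/- TILs (quantile normalization -0.0040, equal totals -0.031, edgeR -0.0076, DESeq2 -0.020). Leaving out single samples, these 3 values ranged from -0.40 to 0.44, from -0.084 to 0.017 and from -0.28 to 0.15. Ifngr2 with anti-PD-L1 in Nr2f6+/+ TILs (-0.54) was at 0.21 under quantile normalization and at 0.20 without replicate 2 of Nr2f6+/+ IgG2b. The calls of Ifitm3 for the combination and for anti-PD-L1 in Nr2f6-/- TILs were also lost without the filter on low values (adjusted p = 0.0705 and 0.129 in limma) and in the first library set alone (0.0548 and 0.118), and the latter with the replicate block (0.0551) and without replicate 2 or 5 of Nr2f6-/- anti-PD-L1 (0.0534 and 0.0525). The cause was not tested.

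With the replicate number as a block, 1 gene was called for the combination (Zbp1, 1.40, adjusted p = 0.0339 in limma) and none elsewhere. Same-numbered samples did not deviate together over the genes tested (correlations of -0.029 to 0.037 over 21 pairs, 0 above 0.1). A shared factor that acts weakly or on few genes would not show in these correlations.

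Gamma-type minus type I ranged over the other alternatives from 0.0080 to 0.68 between the genotypes under anti-PD-L1 (first and second library set alone), from -0.13 to 0.09 under IgG2b, from -0.13 to 0.34 for anti-PD-L1 in Nr2f6+/+ and from 0.25 to 0.68 in Nr2f6-/- TILs, from 0.12 to 0.77 for the combination and from 0.02 to 0.46 for the difference of genotype effects. Leaving out single samples, it ranged from 0.22 to 0.54 between the genotypes under anti-PD-L1, from -0.14 to 0.14 under IgG2b, from -0.19 to 0.14 for anti-PD-L1 in Nr2f6+/+ and from 0.21 to 0.50 in Nr2f6-/- TILs, from 0.28 to 0.46 for the combination and from 0.20 to 0.55 for the difference of genotype effects. The median of all genes for the combination moved from -0.12 to -0.02 under quantile normalization and to -0.19 with equal totals. Of the 11 genes under 200 normalized counts, 7 were at 0 in some sample, and their median SD within groups was 1.99.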
